A study of Mus musculus with 2 samples.

Results

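Mouse genes that have no name drawn from a known function carry placeholder symbols. Gm followed by digits is given to a gene predicted from sequence, and a symbol that ends in Rik comes from a RIKEN full-length cDNA clone. They are a mixture of protein-coding genes, long non-coding RNAs (lncRNAs) and pseudogenes, and lncRNA genes often start opposite a protein-coding gene at a shared promoter. Acetylation of lysine 9 of histone H3 (H3K9ac) marks active promoters and enhancers, so a region with this mark over such a gene can belong to the gene itself, to a neighbour or to an enhancer inside it. Leukemic spleen cells of mice were profiled for this mark by chromatin immunoprecipitation followed by sequencing (ChIP-seq). The members described here are the regions that the authors' deposited table places over a Gm or Rik gene (orientation overlapping) on chromosomes 1 to 19 without chromosome 15, and without Gm20388, a symbol given to 91 regions. There were 1553 such regions of 20615 in all, over 1208 genes. The 12302 regions that overlap genes with other names on the same chromosomes served for comparison.

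The first group was the spleen of NUP98/HOXD13 mice homozygous for the human GFI1-36N cDNA (36N/N), and the other was the spleen of NUP98/HOXD13 mice homozygous for the human GFI1-36S cDNA (36S/S). GFI1 is a transcriptional repressor of blood cell development, 36N is its variant tied to acute myeloid leukemia in the series title, and the NUP98/HOXD13 fusion, which both groups carry, drives myelodysplasia and leukemia. Each genotype had 1 library (2 libraries in all). No difference below therefore has a replicate check, no p-value is given, and the 95% interval given with a region reflects counting error alone. The sources used here give neither the age of the mice nor the number of animals behind a library. The 36N library held 3292869 reads in regions and the 36S library 4989632. Of the leukocyte markers, Ptprc, Cd53 and Laptm5 had an overlapping region, with 83 to 402 reads in the 36N library and 99 to 453 in the 36S library, while Spi1 and Coro1a had none. Marker regions of red cell precursors summed to 477 reads in the 36N library against 2243 in the 36S library (4 of 6 markers with a region, all 4 lower), and those of T cells to 286 against 936 (4 of 5, of which 3 were lower). Those of megakaryocytes summed to 243 against 482 (3 of 4, of which 2 were lower), and those of granulocytes to 1840 against 2119 (5 of 7, none past 1 log2 unit). Single granulocyte markers ran from −0.58 to 0.75 (36N minus 36S, log2), at a median of 0.32. Monocyte marker regions summed to 1069 against 627 reads (4 of 5, of which 2 were higher). B cell markers had 83 against 91 reads (1 of 5), and stromal and endothelial ones 73 against 67 (2 of 5), none past 1 log2 unit. These sums were not scaled for the reads in regions of each library. In cells of a mixed tissue, fewer cells of a type and less mark per cell cannot be told apart, and the part of these cell types in the results below was not tested.

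Among the 20 regions at either end of the range described below, 9 held the member's own start with a promoter in the table. Of these promoters 5 are printed here, with that of Morrbid, to show the starts that the largest differences and the lncRNA results refer to. Each runs from 250 bases before to 50 bases after a transcription start (RefSeq, GRCm38.p6), reads 5′ to 3′ on the strand of the gene, and has its CG dinucleotides in capitals. The first 3 belong to regions with more H3K9ac in the 36N library, the next 2 to regions with less, and the last to the lncRNA gene Morrbid, whose region hardly differed.
Gm9766 (Cep85l), chr10:53379834-53380133, minus strand: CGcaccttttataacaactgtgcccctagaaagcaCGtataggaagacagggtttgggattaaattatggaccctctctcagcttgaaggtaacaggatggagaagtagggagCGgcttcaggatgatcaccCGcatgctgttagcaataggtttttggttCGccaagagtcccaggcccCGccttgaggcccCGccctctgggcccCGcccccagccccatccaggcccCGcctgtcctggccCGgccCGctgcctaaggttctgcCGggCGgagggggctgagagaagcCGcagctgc
5730522E02Rik, chr11:26210527-26210826, minus strand: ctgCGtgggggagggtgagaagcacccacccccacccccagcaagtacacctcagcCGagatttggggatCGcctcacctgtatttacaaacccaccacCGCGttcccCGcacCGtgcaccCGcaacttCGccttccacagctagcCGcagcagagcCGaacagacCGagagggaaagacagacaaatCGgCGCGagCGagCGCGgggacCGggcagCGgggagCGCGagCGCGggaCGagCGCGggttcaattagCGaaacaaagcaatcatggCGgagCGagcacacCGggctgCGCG
B230120H23Rik (Map3k20), chr2:72285387-72285686, plus strand: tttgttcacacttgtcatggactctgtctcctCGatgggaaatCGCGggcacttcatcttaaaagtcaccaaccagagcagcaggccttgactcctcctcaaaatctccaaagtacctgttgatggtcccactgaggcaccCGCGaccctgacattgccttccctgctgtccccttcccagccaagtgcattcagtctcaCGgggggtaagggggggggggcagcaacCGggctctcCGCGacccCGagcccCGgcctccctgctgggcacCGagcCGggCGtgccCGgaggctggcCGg
Gm5483 (Cstdc4), chr16:36183962-36184261, plus strand: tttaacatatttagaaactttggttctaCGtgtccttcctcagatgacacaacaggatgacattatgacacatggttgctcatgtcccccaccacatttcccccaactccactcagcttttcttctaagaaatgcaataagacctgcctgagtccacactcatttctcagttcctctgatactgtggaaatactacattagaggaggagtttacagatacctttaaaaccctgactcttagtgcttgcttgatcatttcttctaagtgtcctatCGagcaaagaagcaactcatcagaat
Gm10505, chr17:27342210-27342509, plus strand: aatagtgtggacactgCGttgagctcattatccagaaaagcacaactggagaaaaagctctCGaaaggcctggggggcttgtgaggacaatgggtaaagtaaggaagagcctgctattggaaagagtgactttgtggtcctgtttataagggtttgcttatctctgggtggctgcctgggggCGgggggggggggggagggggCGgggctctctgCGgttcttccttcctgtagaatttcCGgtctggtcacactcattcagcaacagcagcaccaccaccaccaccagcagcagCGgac
Gm14005 (Morrbid), chr2:128429302-128429601, minus strand: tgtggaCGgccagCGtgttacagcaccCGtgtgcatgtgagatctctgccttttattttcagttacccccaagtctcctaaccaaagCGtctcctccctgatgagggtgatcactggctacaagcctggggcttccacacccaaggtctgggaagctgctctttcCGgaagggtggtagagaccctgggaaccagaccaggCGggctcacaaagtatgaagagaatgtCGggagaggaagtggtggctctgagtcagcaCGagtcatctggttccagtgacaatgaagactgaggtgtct
The 3 higher ones hold 14, 33 and 16 CG dinucleotides. Cstdc4 and Gm10505 hold 2 and 7, and Morrbid holds 8. Of the 4 not printed, Lgalsl holds 41, Crybg3 26 and Zfp975 8, all at regions among the 10 highest, and Ifit1bl2, among the 10 lowest, holds 2.

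Taken as a set, the regions over Gm and Rik genes behaved much as other gene regions did. The difference between the deposited log2 values, 36N minus 36S, had a median of −0.40 over the members (quartiles −0.77 and 0.23), −0.48 over genes with other names and −0.40 over all regions. Of the members, 122 (7.86%) were higher in the 36N library by 1 log2 unit (2-fold) or more, against 7.49% of all regions and 7.68% of regions over genes with other names. A further 182 (11.7%) were lower by as much, against 14.1% of all regions and 12.2% of regions over genes with other names. No test stands behind these calls, which rest on size alone. The counting interval excluded 0 at 117 of the 122 and at 179 of the 182. Close to that limit, Gm12148 was just past it with 114 and 58 reads in the 36N and 36S libraries, and Gm15510 just short of it with 111 and 57. On the lower side Gm16001, with 256 and 522 reads, was just past it and 4930473A06Rik, with 230 and 468, just short.

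Members were weaker than other gene regions, and the difference followed the level. A member held a median of 96 reads in the 36N library and 108 in the 36S library, against 151 and 192.5 for genes with other names, and was 1350 bp long against 1650 bp. With the members cut by level into 5 classes, the median difference was 0.15 in the weakest and −0.73 in the strongest. Regions over genes with other names in the same spans of level had medians of 0.27 and −0.74. The calls split the same way, as 113 of the 122 higher members lay below the members' median level and 104 of the 182 lower ones at or above it. In the plot of difference against level the members lie along the trend of all regions. A level-adjusted difference, the distance from a lowess trend fitted over all autosomal regions, was therefore computed as well. Its median was 0.01 for members and 0.02 for genes with other names. After this adjustment 139 members were higher and 108 lower by 1 log2 unit or more, 56.3% of those past the limit being higher in place of 40.1% as deposited. On this scale 8.12% of all regions were higher and 8.3% lower, and of regions over genes with other names 8.8% were higher and 5.56% lower.

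**Figure D1:**
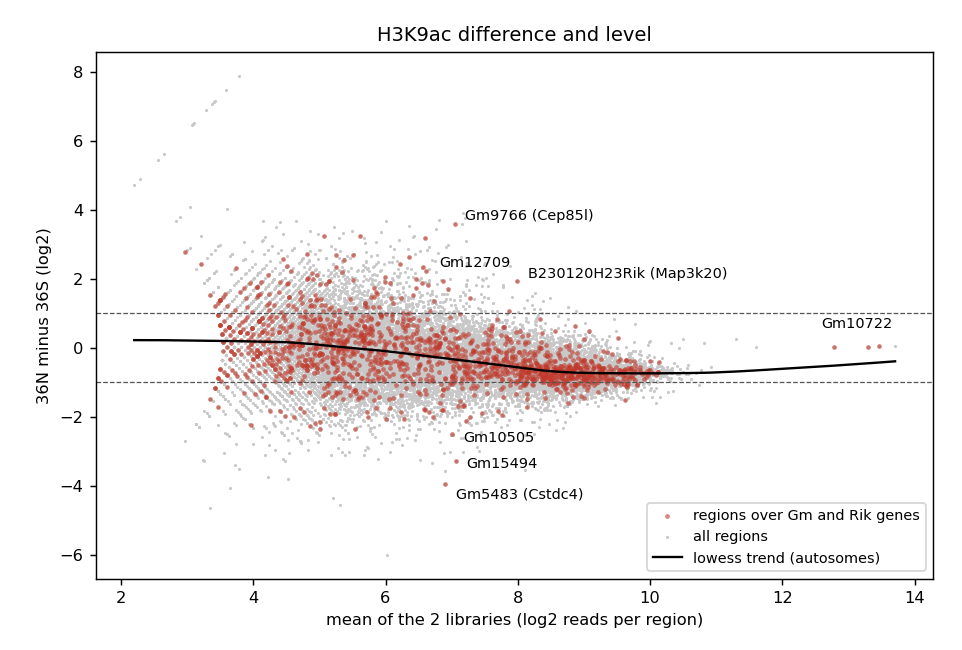
Difference (36N minus 36S, log2) against the mean of the 2 libraries (log2 reads per region) for the 1553 regions over Gm and Rik genes (red) and all 20615 regions (grey). The black line is the lowess trend over autosomal regions and the dashed lines mark 1 log2 unit. Gm9766, at 3.59, and Gm5483, at −3.94, stand farthest from the trend among the 777 members in the upper part of the range of level, and Gm10722 is the strongest member.

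The 10 highest of the well-covered members mostly lay at gene starts. Among the 777 members whose level reached the members' median, 9 were higher in the 36N library by 1 log2 unit or more, against 104 lower ones. Strong regions in general showed this, as 1.16% of these members, 1.42% of all regions and 1.56% of regions over genes with other names at such levels were higher, and 13.4%, 15.9% and 12.9% were lower. Gm9766 is now named Cep85l in RefSeq, a gene for a centrosomal protein. Its region at the Cep85l start (chr10:53378701-53380200) had 450 reads in the 36N library and 38 in the 36S library. It was 12.1-fold higher in the 36N library (difference 3.59, interval 3.11 to 4.11), the largest gain among these 777. Both other regions within 100 kb of it, assigned to Gm9766 and Gm5423 as downstream, were higher too. The first had 67 reads in the 36N library and 14 in the 36S library (2.29, 1.44 to 3.23), and the second had 54 and 14 (1.97, 1.11 to 2.94). Map3k20, listed as B230120H23Rik, encodes the kinase ZAK that responds to stalled ribosomes. Its start region (chr2:72285301-72286950) had 486 reads in the 36N library against 131 in the 36S library (1.92, 1.64 to 2.21), while its other 2 regions, inside the gene, were at 0.75 and −0.35.

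A further 3 gains lay at starts that the region shared with no other named gene. The lncRNA gene 5730522E02Rik (chr11:26209801-26211150) had 185 reads in the 36N library and 53 in the 36S library (1.83, 1.38 to 2.30). Crybg3, a gene of the beta-gamma crystallin domain family listed as Gm9581, had 218 and 69 reads (1.69, 1.29 to 2.10). Lgalsl, a galectin-like gene listed as 1110067D22Rik, had 252 and 94 (1.45, 1.10 to 1.81). In 3 other cases the region covered the start of a named neighbour, so the placeholder symbol hides the gene. Gm12709 at the start of Tctex1d1 had 223 reads in the 36N library and 60 in the 36S library (1.92, 1.504 to 2.36). Gm15614 at the start of Yes1, a Src-family kinase gene, had 167 and 67 (1.34, 0.93 to 1.78), and Gm12524 at the start of Amigo1, an adhesion gene, had 145 and 71 (1.06, 0.64 to 1.49). A region assigned to E130114P18Rik, which lies within Nfia, a transcription factor gene, had 331 and 160 reads (1.08, 0.80 to 1.36). None of the 7 regions assigned to E130114P18Rik overlaps the gene of that name in RefSeq. The tenth, Gm5595, is the zinc finger gene Zfp975 in RefSeq, and with 192 and 100 reads it stayed short of 1 log2 unit (0.97, 0.61 to 1.33).

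The largest loss was in a stefin A cluster. Gm5483 is now Cstdc4, a gene of the stefin A family of intracellular cysteine protease inhibitors. Its region (chr16:36184201-36186750) had 30 reads in the 36N library and 469 in the 36S library, 15.3-fold lower in the 36N library (difference −3.94, interval −4.52 to −3.41). The nearby family members went the same way. Stfa2l1 had 59 reads in the 36N library and 482 in the 36S library (−3.004), Stfa2 had 34 and 413 (−3.58), and Stfa3 had 32 and 332 (−3.35). Gm1975, now Cstdc6, a member in the same cluster with a weaker region, had 11 and 40 reads (−1.84, −2.95 to −0.85). The region that follows, upstream of Casr, did not share the loss, with 25 and 21 reads (0.28, −0.62 to 1.19). Genes of this family are close copies of each other, and the sources used here do not say how reads that match several copies were placed, so the split between these genes is uncertain.

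Other losses lay at lncRNA genes and at starts shared with named genes. Gm15494 has no RefSeq match, and its region covers the start of Eps8l1, an actin regulator gene. It had 42 reads in the 36N library and 417 in the 36S library (chr7:4460551-4462200, −3.28, −3.78 to −2.83), while the other regions within 100 kb ran from −0.77 to 0.88. The lncRNA Gm10505 had 53 and 308 reads over its start (chr17:27341701-27343800, −2.51, −2.96 to −2.09). A region 7660 bp downstream of it lost as much, with 50 reads in the 36N library against 412 in the 36S library (−3.02, −3.47 to −2.59). The lncRNA Gm14207 had 70 and 312 reads (−2.13, −2.52 to −1.75). On chromosome 2, A730036I17Rik with 76 and 309 reads (−1.997, −2.38 to −1.63) and Gm14029 with 108 and 390 (−1.83, −2.15 to −1.51) lie within 100 kb of each other.

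Gm16197 is Trp53cor1 in RefSeq, the lincRNA-p21 gene that p53 activates next to Cdkn1a. Its stronger region (chr17:29077801-29079750) had 90 reads in the 36N library and 340 in the 36S library (−1.89, −2.24 to −1.55). A weaker one in the gene had 11 and 44 reads (−1.97, −3.08 to −0.997). The region over Cdkn1a, 359 against 1036 reads, was at −1.50, and the region between them was at −1.10. After adjustment for level these were at −0.76 and −0.61, short of the limit, and the regions on either side of this stretch were at 0.36 and 0.76 as deposited. 2010002M12Rik, now Ifit1bl2, shares its region with the start of Ifit1, an interferon-induced antiviral gene, and had 108 and 427 reads (−1.96, −2.27 to −1.65). The other Ifit regions within 100 kb did not share this, with Ifit2 at −0.49 and Ifit3 at 0.49. Of the 2 listed interferon-inducible GTPase genes with a region, Gm5431 had 25 and 24 reads and Gm4070 had 22 and 22, with differences of 0.09 and 0.03 and intervals of nearly 1 log2 unit to either side. Gm12185, which lies near Gm5431, had 45 reads at its own start in the 36N library and 83 in the 36S library (−0.86, −1.41 to −0.32). Another region assigned to it, at the start of the interferon-induced GTPase gene Tgtp1, had 75 and 244 (−1.68, −2.07 to −1.30). A region at the start of 9930111J21Rik1, also assigned to Gm12185, did not share this, with 241 and 213 reads (0.20, −0.07 to 0.48). The weakest region of Gm12185 had 18 and 24 reads (−0.39, −1.36 to 0.55). No region was assigned to Gm12250, Gm4951 or Gm1966 among the members. There were 2 losses inside larger genes, Pakap (listed as Gm20459) with 52 and 211 reads (−1.99, −2.46 to −1.55) and Soga1 (listed as 9830001H06Rik) with 52 and 192 (−1.86, −2.33 to −1.41).

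**Figure D2:**
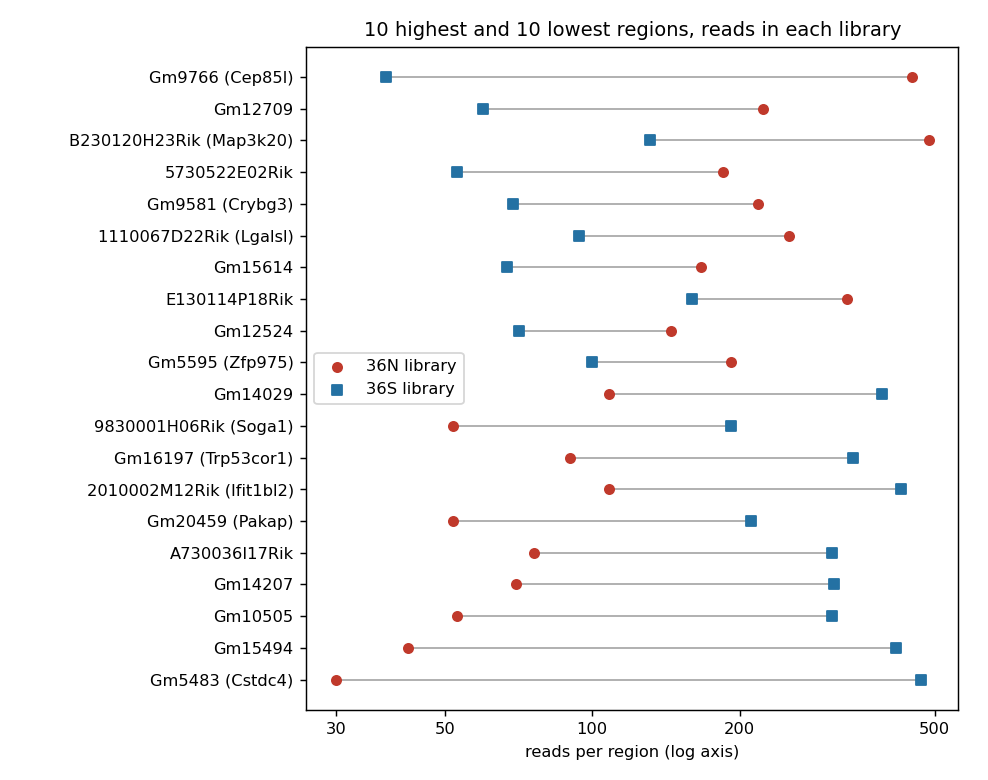
Reads per region (log axis) in the 36N library (circles) and the 36S library (squares) for the 10 highest and the 10 lowest regions by difference among the 777 members whose level reached the members' median. Gm9766 stands at 450 reads in the 36N library and 38 in the 36S library, and Gm5483 at 30 in the 36N library and 469 in the 36S library.

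Some neighbouring regions differed in the same direction. Within 100 kb of the 10 highest regions lay 24 other regions, of which 7 were higher by 1 log2 unit or more (median 0.44). Within 100 kb of the 10 lowest lay 46 regions that are not themselves among those 10, of which 14 were lower by as much (median −0.72). Among all regions 7.49% were higher and 14.1% lower by that size. The 7 higher neighbours were weak, with 21 to 101 reads in the 36N library and 4 to 31 in the 36S library. Weak regions were higher more often in general. Over genes with other names, 22.4% in the weakest of the 5 level classes and 16.2% in the next were higher. The share of all regions is therefore no like background for these neighbours. These loci were chosen after their values were seen. Leaving out the named regions themselves, 2 of 2 regions around Cep85l were higher and 4 of 5 in the stefin A cluster were lower, whereas the 5 regions near Gm15494 all stayed within 1 log2 unit.

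**Figure D3:**
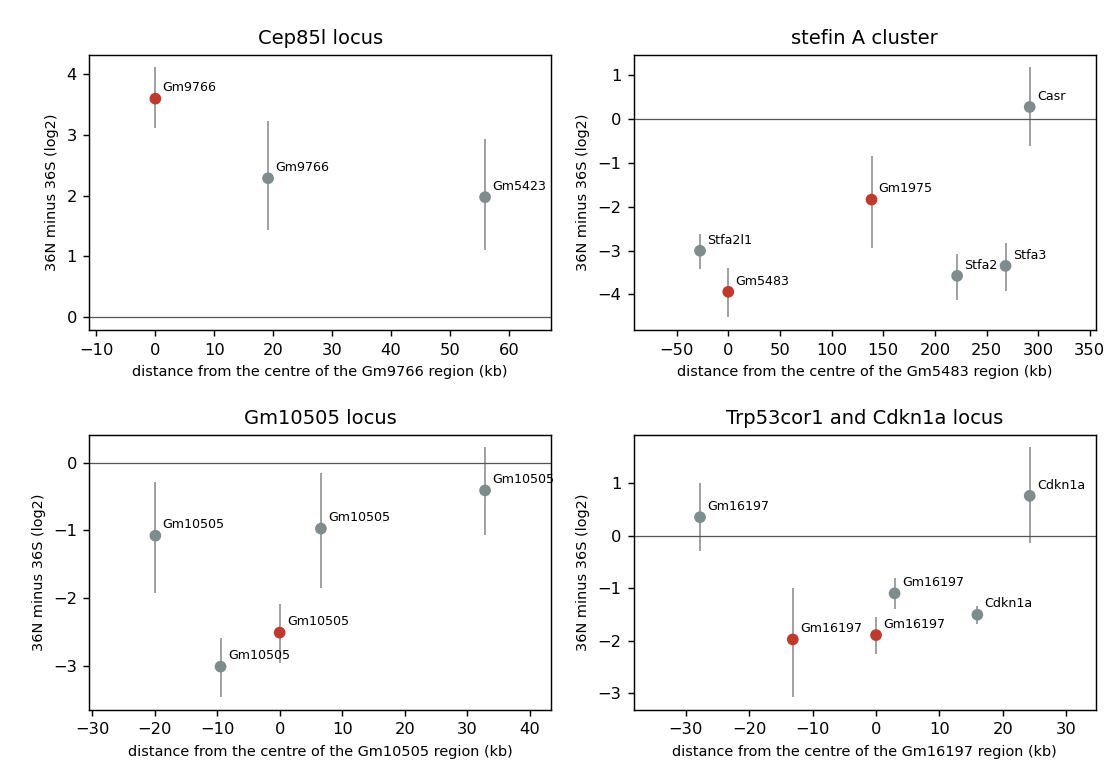
Difference (36N minus 36S, log2) with its 95% counting interval for regions at 4 loci, by distance in kb from the centre of the named region; members are red and other regions grey. Apart from the named region at distance 0, 2 of 2 regions at Cep85l lie above 1, and 4 of 5 in the stefin A cluster, 2 of 4 at Gm10505 and 3 of 5 at Trp53cor1 and Cdkn1a lie below −1.

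By naming scheme, Gm regions were weaker than Rik regions. The 624 Gm regions had a median of 56 reads in the 36N library and 65 in the 36S library, and the 929 Rik regions had 131 and 169. The median difference was −0.35 for Gm and −0.44 for Rik regions, and after adjustment for level −0.05 and 0.03. Past 1 log2 unit as deposited, 48 Gm regions (7.69%) were higher and 84 (13.5%) lower. Of the Rik regions 74 (7.97%) were higher and 98 (10.5%) lower, against 7.49% and 14.1% of all regions. RefSeq still uses 530 of the 1208 symbols. A further 453 appear there as an older name of another symbol, and 225 had no match. The renamed genes held 591 regions, at a median of −0.50, and the 698 regions of genes whose symbol is current were at −0.31, while both were at 0.00 or −0.01 after adjustment for level. The 34 regions over genes now named Zfp, of the zinc finger family that silences repeats, had a median of −0.10, and of 0.05 after adjustment for level. Of these regions 3 (8.82%) were higher and none lower by 1 log2 unit as deposited, against 7.49% and 14.1% of all regions.

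By RefSeq gene type, protein-coding and lncRNA members had like medians and different shares past the limit on the lower side (not tested), and pseudogenes lay below the trend. The 817 protein-coding regions had a median difference of −0.39 (71 higher and 88 lower by 1 log2 unit), and the 387 lncRNA regions were at −0.40 (28 higher and 57 lower). As shares, 10.8% of protein-coding and 14.7% of lncRNA regions were lower, against 14.1% of all regions. Their level-adjusted medians were 0.01 and −0.01, but on that scale 38 protein-coding regions (4.65%) and 42 lncRNA regions (10.9%) were lower, against 8.3% of all regions. The 65 pseudogene regions, over 53 genes, had a median of 26 reads in the 36N library and 37 in the 36S library. None was higher by 1 log2 unit and 10 (15.4%) were lower, a share close to the 14.1% of all regions, while 51 of 65 lay below the trend, with a median difference of −0.52 as deposited and −0.54 after adjustment for level. Other weak regions did not show this. Between the quartiles of level of the pseudogene regions, these 33 had a median of −0.58, whereas 294 other members with no gene start were at 0.07 and 2591 regions over genes with other names at 0.20. Without the 11 regions of Gm2792, none of which overlaps that gene in RefSeq, the level-adjusted median was −0.59. The 12 transcribed pseudogenes were at −0.06. All 65 pseudogene regions carry Gm names. The 9 transcribed pseudogenes with Gm names were at −0.47, or −0.30 after adjustment for level, and the 3 with Rik names at 0.12. Pseudogenes resemble the genes they derive from, and the sources used here do not say where reads that match both were placed. Their median lay close to the log2 ratio of all reads in regions, −0.57. The part of read placement in this was not tested.

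**Figure D4:**
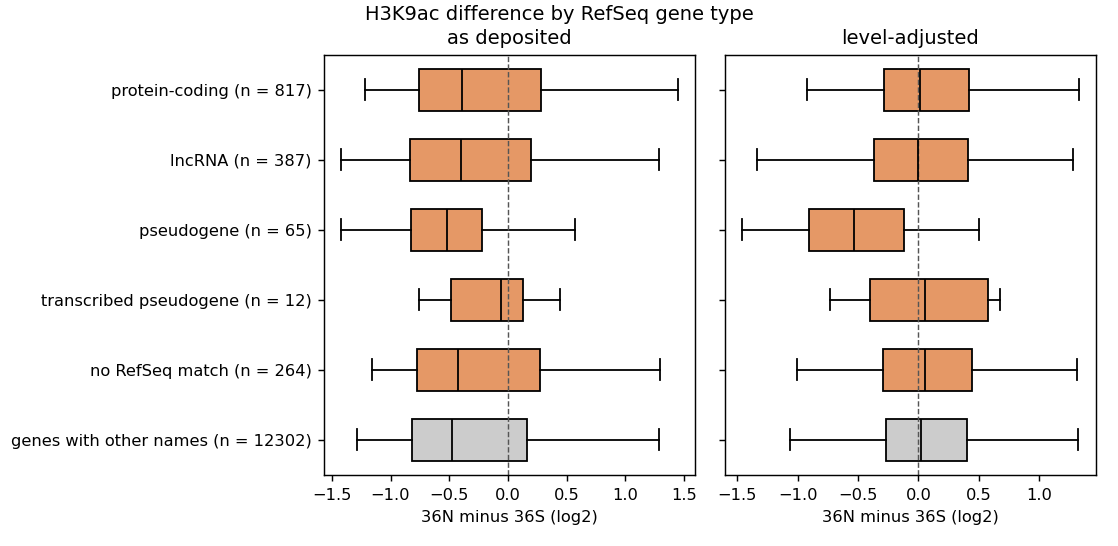
Difference (36N minus 36S, log2) by RefSeq gene type of the member, as deposited and after adjustment for level; the grey box holds regions over genes with other names. Boxes span the quartiles with the median as a line and whiskers reach the 5th and 95th percentiles, and n counts regions. After adjustment the pseudogene box lies below 0, with a median of −0.54, while the other medians lie between −0.01 and 0.06.

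Position relative to gene starts tracked the level of the mark. Of the members, 745 held at least 1 RefSeq start and 808 held none. Regions with a start had a median of 226 reads in the 36N library and 333 in the 36S library, and those without one had 41.5 and 44. In 419 the only start of a named or own gene was the member's own, in 119 the member's start stood beside that of a named gene, and in 179 only the named gene started there. The shared starts had the most reads, with medians of 303 in the 36N library and 522 in the 36S library, and a median difference of −0.65. Own starts without a named partner were at −0.54, and regions with no start at −0.15. The level-adjusted medians of these 3 classes were 0.02, 0.03 and −0.04. After adjustment for level, 68 regions with no start (8.42%) were higher by 1 log2 unit and 92 (11.4%) lower. Among those with a start 71 (9.53%) were higher and 16 (2.15%) lower. The shares of all regions on this scale were 8.12% higher and 8.3% lower.

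Regions at CpG-poor promoters held fewer reads. For 538 regions that hold the member's own start, the promoter was looked up in RefSeq, taking the first where a region held several. The median promoter had 21 CG dinucleotides in its 300 bases, against 7 over all 32851 promoters of the table. The 61 regions with 0 to 5 had medians of 77 reads in the 36N library and 87 in the 36S library and a median difference of −0.05. The 272 with 21 or more had 272.5 and 434.5 reads and a median of −0.62. After adjustment for level the medians were 0.11 and 0.04. The hexamer AAATCA, which holds the AATC core that GFI1 binds, was found on either strand in 43 of the 538 promoters (7.99%), against 14.0% of all promoters, with or without the mark. The hexamer is AT-rich, and the median GC content was 60.7% over the 538 promoters and 52.7% over all promoters. The part of base composition in these shares was not tested. Of the 43 regions with the hexamer, 7 were higher and 3 lower by 1 log2 unit, at a median of −0.48, and the 495 without it were at −0.59, with 32 higher and 51 lower. As shares, 16.3% and 6.46% were higher, against 7.49% of all regions, and 6.98% and 10.3% were lower, against 14.1%. The regions with the hexamer were weaker, with medians of 139 reads in the 36N library and 176 in the 36S library against 223 and 346, and the level-adjusted medians were 0.10 and 0.02. None of the 6 promoters printed above holds the hexamer. The AATC core alone was not counted, and it occurs in those of 5730522E02Rik and Map3k20.

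The 3 strongest members hardly differed between the libraries as deposited, which put them 0.46 to 0.54 above the trend at their level. Gm10722 (chr9:2999851-3007800) had 11312 reads in the 36N library and 11113 in the 36S library, a difference of 0.05. Gm10800 (chr2:98665951-98667600) had 9953 and 10076 (0.01), and Gm10801 next to it had 6975 and 7012 (0.02). None of the 3 overlaps a RefSeq gene, and both places are known to collect reads of satellite repeats in many sequencing experiments. They held 10.02% of the members' reads in the 36N library and 6.88% in the 36S library. The median over members was −0.40 without them as well. The next strongest were 3110056K07Rik, a lncRNA gene beside Arid4a, with 956 and 1305 reads (−0.42), and 1810013L24Rik with 861 and 1420 (−0.70).

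Genes with several regions often had differences on both sides of 0. There were 62 genes with 3 or more regions, which held 271 members. In 39 of them regions lay on both sides of 0, in 7 all were above 0 and in 16 all were below it. The 271 regions had a median of 44 reads in each library, and the counting intervals of many hold 0. The sign of a single region is then uncertain, and the part of counting error in the mixed signs was not tested. Of the 271 regions 113 were above 0 and 158 below, and of all 20615 regions 6874 and 13741. By 1 log2 unit or more 8.86% of the 271 were higher and 11.8% lower, against 7.49% and 14.1% of all regions. Genes with other names were not counted in this way. Every region was higher by 1 log2 unit or more in 2 of the 62 genes, and in none were all lower by as much. One of the 2 was 5730522E02Rik, whose regions away from the start had 38 and 21 reads in the 36N library against 9 and 4 in the 36S library (2.10 and 2.42). The other was D630037F22Rik, now Tbc1d32, a gene needed for cilia, with 55, 51 and 85 reads in the 36N library against 14, 22 and 19 in the 36S library (2.001, 1.24 and 2.19). Cped1, listed as A430107O13Rik, was higher at all 4 regions, from 0.82 to 1.88, and 3 of them passed 1 log2 unit. Its strongest, at the start, had 142 reads in the 36N library and 50 in the 36S library.

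Pakap was the counterpart, with 3 of 4 regions lower by 1 log2 unit or more (−2.15 to −0.71) and 112 reads in all in the 36N library against 409 in the 36S library. The 6 regions assigned to Gm3417 ran from −1.22 to −0.39, but none overlaps that gene in RefSeq. Mideas, a gene of a mitotic deacetylase complex listed as C130039O16Rik, had 4 regions from −1.31 to −0.82. After adjustment for level they ran from −0.85 to −0.08, short of the limit. Hectd4, a ubiquitin ligase family gene listed as Gm15800, had regions past the limit in both directions. Its start region had 494 reads in the 36N library and 939 in the 36S library (−0.90), or −0.16 after adjustment for level. Of its other 2 regions, both inside the gene, the first had 39 reads against 111 (−1.48, −2.05 to −0.94) and the second had 101 against 11 (3.23, 2.33 to 4.27). The 31 regions assigned to C130026I21Rik on chromosome 1 made up the largest group, and none passed 1 log2 unit (−0.57 to 0.93, median −0.01). Only 5 of them overlap the gene of that name in RefSeq. Morrbid, a lncRNA that controls the lifespan of myeloid cells, had 346 reads at its start in the 36N library and 336 in the 36S library (0.07, −0.15 to 0.29), 0.74 above the trend, and its 4 other regions ran from −0.17 to 0.37.

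**Figure D5:**
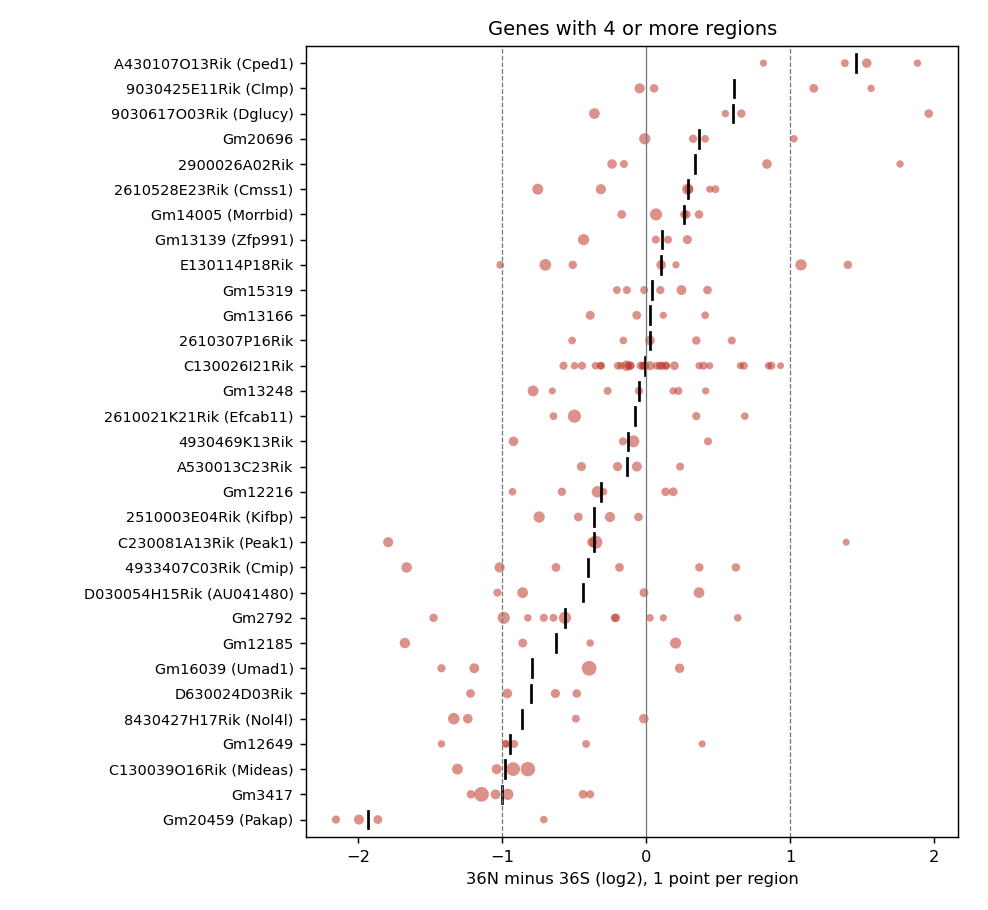
Difference (36N minus 36S, log2) of every region in genes with 4 or more member regions; point area grows with the mean reads of the region, short black lines are gene medians, and dashed lines mark 1 log2 unit. Cped1 lies at the upper end with a median of 1.46 and Pakap at the lower end with −1.93, and the 31 regions of C130026I21Rik spread around 0.

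By chromosome, member medians ran from −0.62 on chromosome 17 to 0.01 on chromosome 14, where the regions over genes with other names were at −0.46 and −0.45. The members on chromosome 14 were weak, with medians of 29 reads in the 36N library and 28 in the 36S library. On chromosome 17, 20 of 92 members (21.7%) were lower by 1 log2 unit or more, against 11.6% of regions over genes with other names there and 14.1% of all regions. A further 3 (3.26%) were higher, against 6.15% and 7.49%. The level-adjusted median was −0.22, against 0.04 for genes with other names there. Of these 92, 17 are the regions of Gm2792 and Gm3417, none of which overlaps its gene in RefSeq. Without them 16 of 75 (21.3%) were lower and the level-adjusted median was −0.17. Chromosome 16 members were much alike as deposited, at a median of −0.61. There 11 of 52 (21.2%) were lower, against 12.2% of regions over genes with other names, but the level-adjusted median was −0.03.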

How the data were processed

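H3K9ac chromatin was sequenced in 2 libraries. Per the labels' protocols, red cells were lysed, cells were fixed with formaldehyde at 0.4% and chromatin was sonicated for 20 min. Tools listed without their roles, per the submitters' processing notes, were STAR 2.5.0c, CASAVA 1.8.2 and SAMtools, with the build mm10. The sources used here do not say how regions were called and annotated or how multiply mapping reads were treated. No input library was used here. The authors' deposited table holds 1 log2 value per library and region. Taken to the power of 2, 36S values were whole reads (a floor of 0.9 stands for 0, in 13 regions, none a member), and 36N values whole multiples of 1.02, within 0.0177 reads. Values were not divided by region length. At the members' median reads, counting error gave a half-width of 20.0% in the 36N library and 18.9% in the 36S library.

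The members and lists were chosen with earlier results of these data known. With 1 library per group no test was made: differences of the log2 values, a size limit of 1 log2 unit, and exact conditional (Clopper-Pearson) intervals were used (scipy 1.17.1). The lowess trend (fraction 0.3) used statsmodels 0.14.6. The code was tested on simulated data. Named by rule were, at or above the members' median level, the 10 highest and 10 lowest, then the 5 strongest, genes with 3 or more regions, the members nearest the size limit, and 6 listed genes. Gm1975, Gm5423, the stefin A genes, Casr, Ifit2, Ifit3, Tgtp1 and Cdkn1a were named after their values were seen. Symbols and starts came from RefSeq, GRCm38.p6; regions count as over a gene from 1 bp. Alternatives were 3 scalings, a level filter, 1 region per gene, regions over their own RefSeq gene alone, other sizes, and chromosome 15.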

Additional observations from a re-analysis of the deposited data

How the results depend on the processing

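No paired analysis was possible because there is 1 library per genotype. For the same reason leaving out a library gives no value, and all results below are values with no test. No median of the members or of a class below turned past 1 log2 unit in any setting. Centring on the median region (a shift of 0.40 log2 units) gave median differences of −0.0014 for all members, 0.049 for Gm, −0.043 for Rik, 0.0086 for protein-coding, −0.00083 for lncRNA, −0.12 for pseudogene, 0.34 for transcribed pseudogene and −0.025 for unmatched. Adjustment for level gave 0.0072 for all members, −0.052 for Gm, 0.031 for Rik, 0.012 for protein-coding, −0.0053 for lncRNA, 0.050 for transcribed pseudogene and 0.057 for unmatched, and pseudogene regions stayed at −0.54. Quantile normalization gave 0 for all members, −0.052 for Gm, 0.019 for Rik, 0 for protein-coding, −0.014 for lncRNA, 0.050 for transcribed pseudogene and 0.043 for unmatched, with pseudogenes at −0.51. Members with a mean of 50 reads or more (1039 regions) had medians of −0.57 for all members, −0.53 for Gm, −0.58 for Rik, −0.60 for protein-coding, −0.54 for lncRNA and −0.56 for unmatched. With 1 region per gene, protein-coding members were at −0.50. Regions over their own RefSeq gene and no other named gene (887) had medians of −0.18 for Gm and −0.23 for lncRNA.

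The counts past the limit turned with the scaling: 230 higher and 65 lower after centring, 139 and 108 after adjustment for level, and 139 and 103 after quantile normalization, in place of 122 and 182. Higher regions were thus 78.0%, 56.3% and 57.4% of those past it, in place of 40.1%. Among the 1039 members with a mean of 50 reads or more 45 were higher and 136 lower. Of the 887 over their own RefSeq gene and no other named gene 82 were higher and 110 lower. These sets are smaller than the 1553 members, so their counts cannot be set directly against 122 and 182. At a limit of 1.5-fold 235 were higher and 611 lower, and at 1.5 log2 units 62 and 47. After adjustment for level 8.95% of members were higher and 6.95% lower, against 8.12% and 8.3% of all regions. Apart from this and the deposited values, shares of all regions were not computed. Counts in the other settings therefore describe no trait of the members, and centring moves every region by the same amount. The 10 lowest regions named in the report stayed past the limit in all 3 scalings, as did the 10 highest, of which 9 passed it as deposited. The cause of these shifts was not tested beyond the trend with level given in the report. Depth limits the weak regions most: 604 of 1553 members had a counting interval that holds 0.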
